A study of Mus musculus with 31 samples.

Results

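The splicing factors and RNA-binding proteins described here were 79 splicing events in 63 genes, out of 1922 events in 1559 genes that were counted in mouse models of Huntington's disease (HD), in the cortex. They were chosen by gene symbol alone: the hnRNP, SR, Rbm, Mbnl, Celf, Rbfox, Nova, Ptbp, Elavl, Khdrbs, Pcbp, Ddx, Dhx, Prpf, Snrp, Sf3, U2af, Eif and Stau families, not all of which were measured, and a few single genes, without Hnrpdl, Hnrnpk, Rbm5 and Sfrs8. The rule itself uses no measured value, but it was set with earlier results of these data known. One event listed as Hnrpk, an older symbol of Hnrnpk, stayed in because the rule names only the newer one. By function they fell into 16 events of hnRNP and poly(C) proteins, 8 of SR proteins, 17 of tissue-specific splicing regulators, 13 of the RBM family, 10 of spliceosome components, 3 of helicases and 12 of translation and mRNA localization factors. Of the 79 events, 76 were cassette exons, and 50 of the 63 genes had 1 event.

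RASL-seq counts pairs of probes that are ligated across a known splice junction. An event is read by a short count where the alternative exon is skipped and by a long count where it is joined to its neighbour, and exclusion is the short count as a percentage of both. The 31 mice, 1 library each from the cortex of 1 hemisphere, were 3 transgenic R6/2 HD mice with an added fragment of mutant human huntingtin (exon 1, on a mixed B6CBA background) and 3 wild-type (WT) R6/2 controls, together with knock-in mice on a C57BL/6 background whose own huntingtin gene was lengthened. The knock-ins carried 150 glutamines (Q150) or 175 (Q175) on 1 allele, with 7 on the other (HET), or on both alleles (HOMO), as 4 HET and 4 HOMO mice of the Q150 line and 4 HET and 3 HOMO mice of the Q175 line, beside 10 WT mice with 7 glutamines on both alleles. The files list different events for R6/2, Q150 and Q175 mice, with 73, 74 and 79 of the splicing factor events, and 5 WT mice share the list of each knock-in line. The knock-in line was taken from the glutamine numbers, since the labels use the line names loosely, and the methods give other numbers of homozygous mice for the lines than the labels do. The labels give no ages, but by the methods R6/2 mice were the youngest and Q175 mice the oldest, so that model and age cannot be told apart.

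Splicing factors choose which exons enter a messenger RNA, and they act on each other and on their own transcripts. Many of them hold an exon whose inclusion or skipping shifts the reading frame or brings in an early stop codon, which sends the message to nonsense-mediated decay, the pathway that degrades such RNAs. Other alternative exons switch a factor between nuclear and cytoplasmic forms or remove part of an RNA-binding domain, and in the brain the Rbfox, Mbnl, Celf, Ptbp2, Nova and Elavl proteins set much of the neuron-specific exon use.

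Exons of several events that changed, with those of related genes, are printed as the transcribed strand, 5′ to 3′, with the exon in capitals and 15 bases of each flanking intron in lower case. The positions listed in the files do not match those of GRCm38, so each exon was identified by its gene and by the length from one flanking exon to the other in the GENCODE M21 annotation, which gave 1 match for 59 of the 76 cassette exons. Events without a single match, among them A2bp1 4130, Eif2a, Eif4g3 8283, Rbm26 7904 and Snrp70, have no identified exon. The coordinates are those of the exon in GRCm38, and all of the exons printed are protein-coding throughout. In Ptbp2, whose protein takes over from Ptbp1 in developing neurons, and in Ptbp1 itself, an exon of 34 bases is the switch between a full-length message and a frame-shifted one.

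Ptbp2, chr3:119724612-119724645, strand minus: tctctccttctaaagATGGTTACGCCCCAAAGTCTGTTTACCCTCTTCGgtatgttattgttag

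Ptbp1, chr10:79862014-79862047, strand plus: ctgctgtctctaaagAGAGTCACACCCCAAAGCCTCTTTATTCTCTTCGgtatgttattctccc

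The Mbnl1 and Mbnl2 proteins are muscleblind factors, which promote the adult pattern of exon use. Both genes held a measured exon of 95 bases, and Mbnl2 a further one of 36 bases.

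Mbnl1, chr3:60622146-60622240, strand plus: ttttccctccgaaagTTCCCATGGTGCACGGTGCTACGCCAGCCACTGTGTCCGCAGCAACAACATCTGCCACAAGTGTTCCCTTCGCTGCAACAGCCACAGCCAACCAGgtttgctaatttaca

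Mbnl2, chr14:120404638-120404732, strand plus: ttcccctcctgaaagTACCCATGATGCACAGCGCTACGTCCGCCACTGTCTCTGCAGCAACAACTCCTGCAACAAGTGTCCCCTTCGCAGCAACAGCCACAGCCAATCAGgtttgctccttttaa

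Mbnl2, chr14:120403336-120403371, strand plus: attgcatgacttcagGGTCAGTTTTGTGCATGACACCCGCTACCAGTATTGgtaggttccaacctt

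Rbfox2 and Rbfox1 (listed as A2bp1) bind the motif TGCATG, which stands on either side of their own exon of 93 bases within the flanks printed here.

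Rbfox2, chr15:77105577-77105669, strand minus: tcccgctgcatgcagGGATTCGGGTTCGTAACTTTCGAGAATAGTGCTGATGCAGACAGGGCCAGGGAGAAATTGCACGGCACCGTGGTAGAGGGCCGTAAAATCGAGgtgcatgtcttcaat

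A2bp1, chr16:7292185-7292277, strand plus: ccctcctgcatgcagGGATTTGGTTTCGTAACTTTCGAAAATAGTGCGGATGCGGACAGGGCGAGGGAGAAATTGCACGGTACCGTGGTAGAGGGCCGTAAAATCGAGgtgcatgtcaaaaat

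Pcbp2, a poly(C)-binding protein, is shown because its exon had one of the clearest changes.

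Pcbp2, chr15:102488776-102488814, strand plus: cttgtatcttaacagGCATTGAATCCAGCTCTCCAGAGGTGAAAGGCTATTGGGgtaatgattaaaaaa

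Exons of equal length in related genes were compared base by base without gaps. The Ptbp2 and Ptbp1 exons were identical at 26 of 34 bases (76.5%), those of Mbnl1 and Mbnl2 at 81 of 95 (85.3%), those of Rbfox2 and A2bp1 at 86 of 93 (92.5%), and the 39-base exons of Elavl4 and Elavl2, neuronal RNA-stabilizing proteins, at 33 (84.6%). The 100 intron bases before these exons were less alike, with 28, 37, 35 and 21 identical bases in the same order. Motifs were searched on the transcribed strand only. TGCATG stood in the 100 bases before the exon in 5 of 59 splicing factor exons (8.47%), against 5.99% of 1519 cassette exons in all, and in the 100 bases after it in 8 of 59 (13.6%), against 8.49%, with the Tra2a exon counted as its 2 listed events. The Rbfox2 8783 and A2bp1 5001 exons had it on both sides. TTCTCT, which polypyrimidine tract-binding proteins can bind, preceded 9 of 59 exons (15.3%, against 15.7% of all), Ptbp2 and Celf4 among them, and followed 4 (6.78%, against 8.10%). TGTGTG, of the kind that CELF proteins bind, preceded 5 of 59 (8.47%) and followed 3 (5.08%), against 9.22% of all on each side. TAGGG, which hnRNP A1 binds, preceded 1 (1.69%, against 4.34%) and followed 5 (8.47%, against 6.65%). A match is a description of these letters and not a shown binding site.

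The splicing factor exons had a median length of 87 bases against 90 for all cassette exons and a length divisible by 3 in 37 of 59 (62.7%) against 65.6%. Exons annotated only in transcripts marked for nonsense-mediated decay made up 10 of 59 (16.9%), against 7.04% of all cassette exons. These were the exons of Celf4, Prpf3, Prpf38b, Prpf39, Rbm3, Sfrs3, U2af1, the 1711-base exon of Hnrnpa1 and the Tra2a exon, which was listed as 2 events. The class comes from the match of lengths to the annotation, and the Hnrnpa1 event (9404) had an exclusion of only 1.91%, 1.83% and 2.67% in R6/2 WT mice, so that its match to a decay-marked exon is uncertain. The U2af1 match is uncertain too. Its counts are also listed as a pair of mutually exclusive exons (event 8738), and exclusion was 34.6%, 36.9% and 35.6% in R6/2 WT mice. The Tra2a pair and the U2af1 pair each held the same counts in every mouse, so 79 events stand for 77 sets of probes, and Rbfox2 events 7670 and 8797 shared their short counts. In every mouse the short count of Mbnl2 event 4827 was also the long count of Mbnl2 event 8565, so that these 2 events are not separate measurements.

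Every junction count listed was at least 4, so events with fainter junctions are not seen here. Totals of short and long counts per mouse ran from 2171709 to 5256516, of which the splicing factor events took 7.04% to 8.27%. Of the 11 neuronal markers listed for the check of tissue, 9 were among the measured genes (Snap25 and Map2 were not), with a summed level of 41645 to 45524 CPM (counts scaled to the total of the mouse) in R6/2 WT mice and 34753 to 39359 in R6/2 HD mice, 42803 to 50592 in Q150 WT, 37858 to 45346 in Q150 HET and 38171 to 43056 in Q150 HOMO mice, and 38655 to 46777 in Q175 WT, 39193 to 45320 in Q175 HET and 40484 to 45888 in Q175 HOMO mice. The lower neuronal sum in R6/2 HD mice did not overlap with WT. In bulk cortex fewer cells of a type and less RNA per cell cannot be told apart, and the part of this in the results was not tested. Of the 7 oligodendrocyte markers 2 to 4 were measured, with 10879 to 13272 CPM in R6/2 WT and 9001 to 13066 in R6/2 HD mice, overlapping ranges as in the knock-ins, and no astrocyte or microglia marker was among the measured genes. Mouse numbers in each knock-in set fell into a low and a high series. All Q150 groups had mice in both, while Q175 HET mice were all in the low and Q175 HOMO mice all in the high series, and results that depend on it are marked. Over all events exclusion moved upward, by a median log2 short-to-long ratio of 0.18 in R6/2 HD, 0.10 in Q150 HET, 0.19 in Q150 HOMO, 0.04 in Q175 HET and 0.07 in Q175 HOMO mice. Changes below are not corrected for this shift, and calls that were lost when each mouse was centred on its median event are named as lost on centring.

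The first question was how many of the splicing factor events changed with the mutation. In R6/2 HD mice 26 of 73 passed (limma, Benjamini-Hochberg adjusted p under 0.05 over all events of the set), or 35.6%, beside 28.6% of all 1743 events. Exclusion rose in 17, beside 21.1% of all events, and fell in 9, beside 7.46%. On centring the split was 13 higher and 13 lower, and no centred shares over all events are given here or below. The WT and HD mice of all 26 events did not overlap. Here and below, overlap was looked at for the splicing factor events only, so it does not set them apart from other events. The median log2 change was 0.10 over the splicing factor events and 0.18 over all.

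In Q150 HOMO mice 18 of 74 passed (24.3%, beside 23.9% of all 1785 events), 13 with higher exclusion (beside 19.8%) and 5 with lower (beside 4.09%), which became 8 and 8 on centring. In 13 of the 18 the HOMO and WT mice did not overlap, with no such count over all events. In Q150 HET mice 3 passed, all with higher exclusion (beside 3.47% of all events, 3.03% higher and 0.448% lower), and their mice did not overlap. These 3 events, Hnrnpa1 7108, Ptbp2 and Srrm2, were all lost on centring, where 1 other, Hnrnpd, passed with lower exclusion.

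In Q175 HOMO mice 6 of 79 passed (7.59%, beside 7.07% of all 1839 events), all 6 with higher exclusion (beside 5.6% higher and 1.47% lower among all events). Their mice did not overlap, which was not counted over all events. In Q175 HET mice limma called 0 of 79, beside 0.598% of all events (0.381% higher and 0.218% lower). There, 6 events had an unadjusted p under 0.05, and the quasi-binomial model of the counts called 1, Snrp70, the U1 snRNP protein, with lower exclusion. In the 4 knock-in comparisons the shares of splicing factor events thus lay near those of all events.

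**Figure D1:**
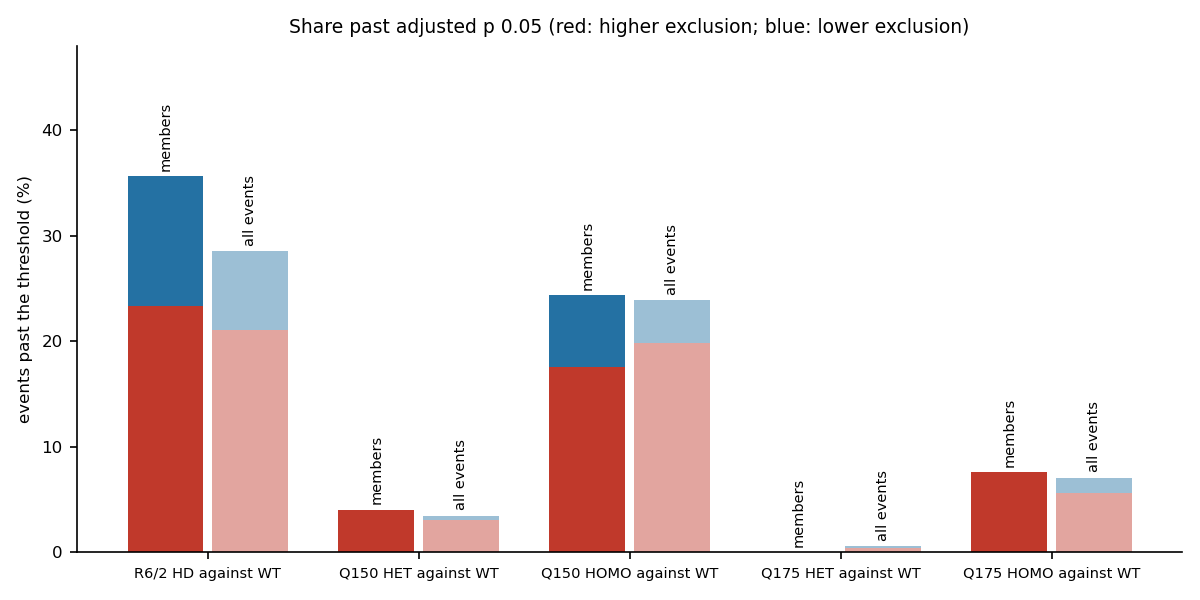
Share of events past an adjusted p of 0.05 (y axis, percent) in each mutant group against its WT mice, for the splicing factor events (left bar of each pair, labelled members) and for all events (right bar, paler), split into higher exclusion (red) and lower exclusion (blue). The R6/2 pair stands at 35.6% and 28.6%, and the Q150 HOMO pair at 24.3% and 23.9%.

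Over the 5 comparisons 35 of the 79 events, in 30 genes, passed at least once and 44 never did. Taking R6/2 HD, Q150 HOMO and Q175 HOMO as the 3 models, 14 events passed in the same direction in at least 2, 11 with higher and 3 with lower exclusion, and only the Celf4 and Prpf3 exons did so in all 3. These counts across comparisons and models were not made over all events, so they do not set the splicing factor events apart. Of the 53 calls 25 were lost with no variance trend in the fit. In R6/2 HD mice these were Celf2, Eif4a2, Eif4g3 8283, Eif4h, Hnrnpd, Hnrph3 4848, Hnrpk, Luc7l2, Mbnl2 8565, Prpf39 and both U2af1 events. In Q150 mice they were Hnrnpa1 7108 in HET and Ddx50, Eif4a2, Eif4g3 8954, Eif4h, Hnrnpd, Mbnl1 4569, Mbnl2 4827 and Rbfox2 8783 in HOMO mice, and in Q175 HOMO mice Prpf3, Rbfox2 8797, Rbm10 and Rbm34. The 11 events that passed in both R6/2 HD and Q150 HOMO mice and the 4 that passed in both R6/2 HD and Q175 HOMO mice each moved in the same direction in both. Agreement of direction was not counted over all events. R6/2 mice share no controls with the knock-ins, and the Q150 and Q175 mice had separate WT mice.

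**Figure D2:**
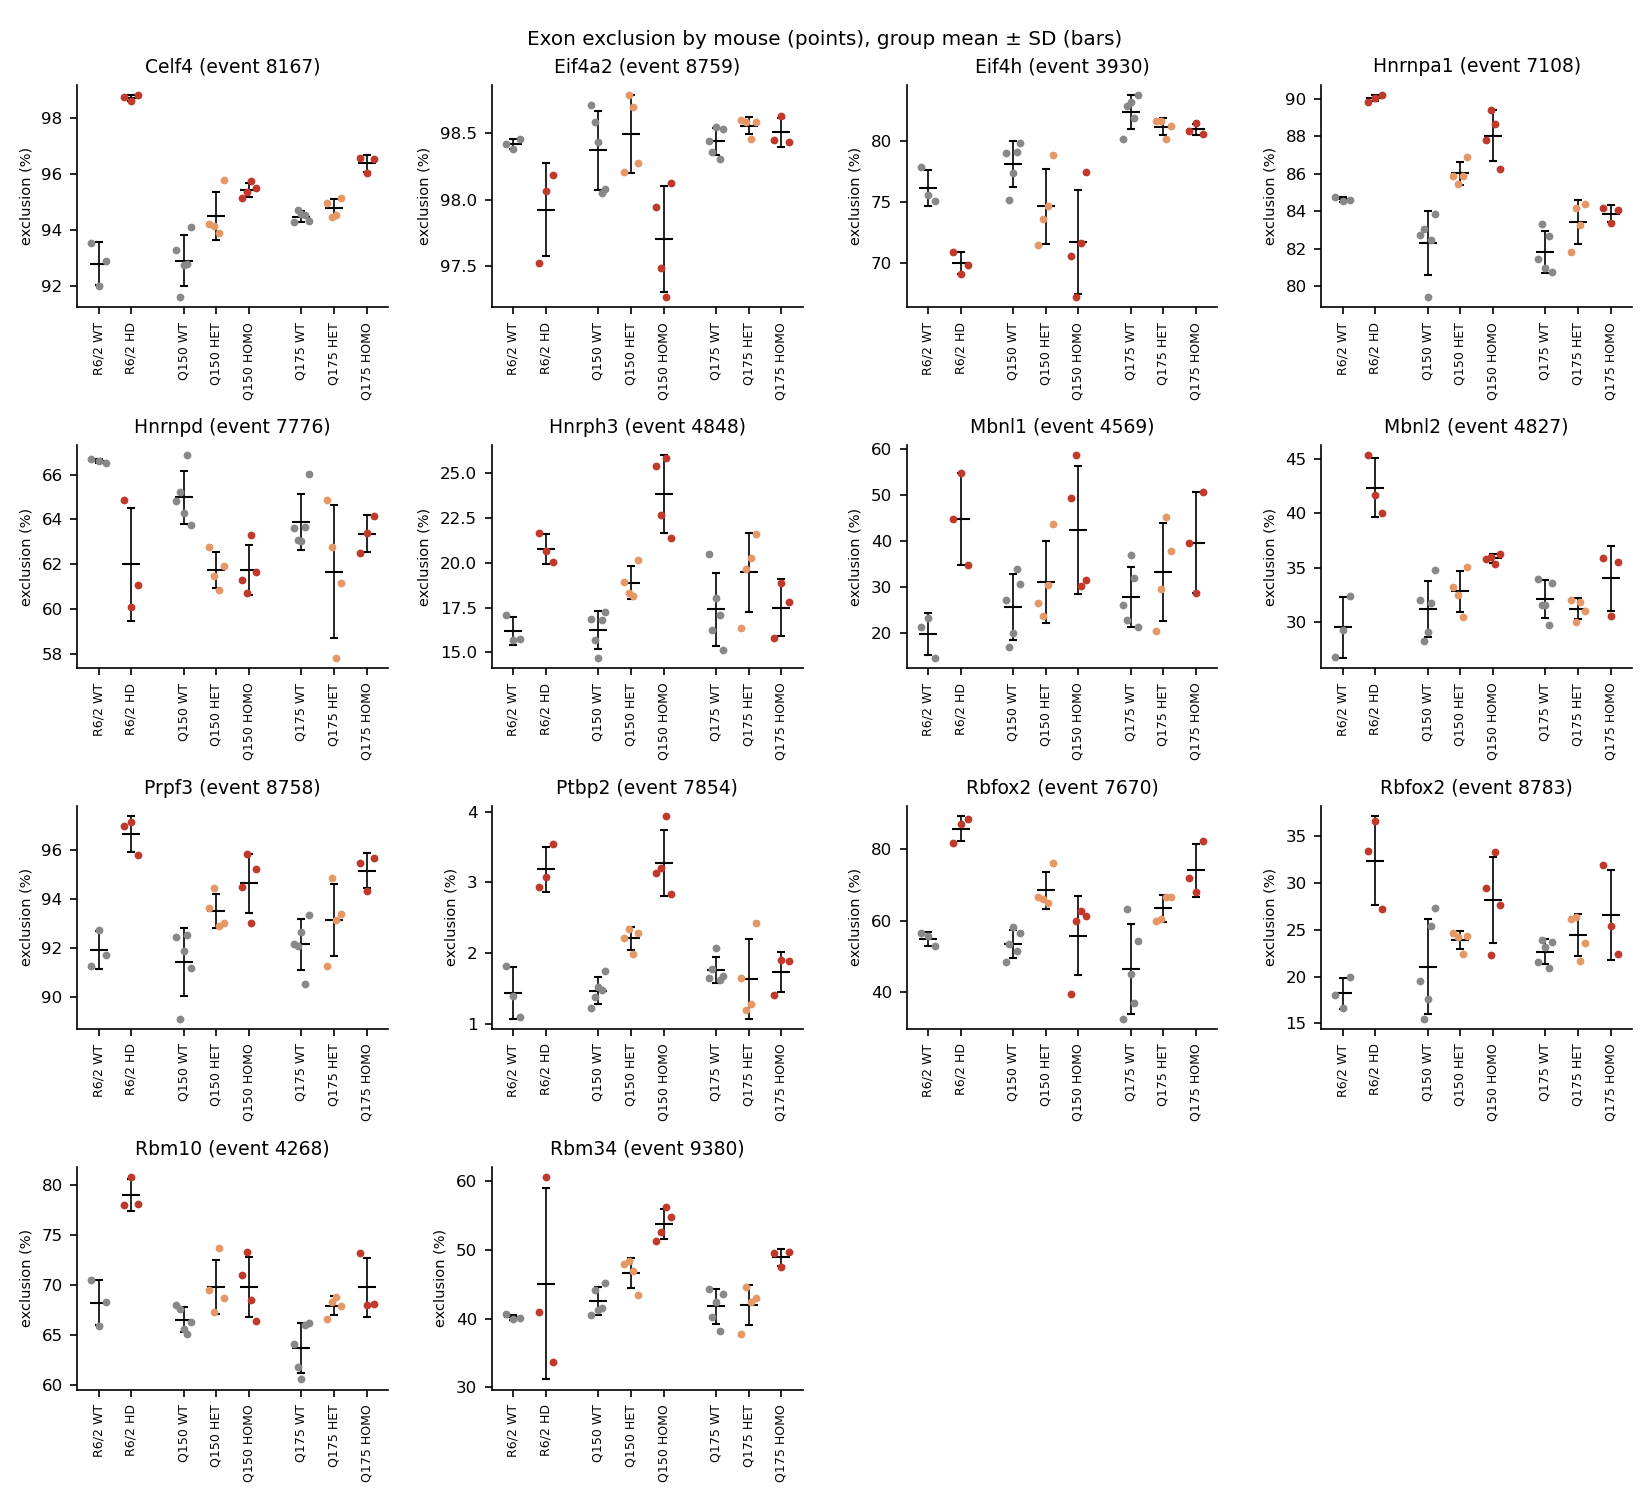
Exclusion (y axis, percent, a scale of its own for each event) in every mouse of the 8 groups for the 14 events that passed in at least 2 of the 3 models, with the group mean and SD as bars. Celf4 and Prpf3 lie higher in R6/2 HD, Q150 HOMO and Q175 HOMO mice than in the WT mice beside them, while Ptbp2 does so in R6/2 HD and Q150 HOMO but not in Q175 HOMO mice.

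The tissue-specific regulators held the 2 largest rises in R6/2 HD mice, Celf4 and Rbfox2 event 7670, the second of which rested on few counts. In R6/2 HD mice exclusion of 8 of 17 events changed, upward in 6 and downward in 2, beside 28.6% of all events. In Q150 HOMO mice 4 of 16 passed, beside 23.9%, and in Q175 HOMO mice 3 of 17, beside 7.07%, all higher. Celf4, a neuronal CELF-family regulator of splicing and mRNA stability, led them with an exon of 85 bases that the annotation holds only in a transcript marked for nonsense-mediated decay.

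Exclusion of the Celf4 exon was 93.5%, 91.98% and 92.9% in the R6/2 WT mice and 98.7%, 98.6% and 98.8% in the R6/2 HD mice. The groups lay well apart, and the log2 short-to-long ratio rose by 2.57 ± 0.12 (limma adjusted p = 2.75e-08), the largest rise among the splicing factor events. The long junction, which marks the exon, went from 485 ± 59.1 to 107 ± 9.81 CPM (SD, n = 3), and the short junction from 6241 ± 286 to 8191 ± 433. The long junction was thus lower and the short one higher, and as a ratio the long one differed by more.

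In the Q150 set exclusion of the Celf4 exon was 93.3%, 91.6%, 92.7%, 92.8% and 94.1% in WT, 94.2%, 94.1%, 93.9% and 95.8% in HET and 95.1%, 95.3%, 95.7% and 95.5% in HOMO mice. Every HOMO mouse was above every WT mouse, and the rise was 0.67 ± 0.12 (adjusted p = 0.000241) by limma. The HET value, 0.40 ± 0.12, had an adjusted p of 0.0568. In the Q175 set the values were 94.3%, 94.7%, 94.6%, 94.5% and 94.3% in WT, 94.96%, 94.5%, 94.5% and 95.1% in HET and 96.6%, 96.03% and 96.5% in HOMO mice. HOMO mice stood apart from both other groups, by 0.64 ± 0.09 (adjusted p = 2.69e-06) from WT and by 0.55 ± 0.09 (adjusted p = 0.000203) from HET in limma, while HET mice lay 0.09 ± 0.08 from WT (adjusted p = 0.745). With the series of mouse numbers as a term the difference between Q175 HOMO and HET, which shared no series, had an adjusted p of 0.094.

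Rbfox2, which shapes neuronal exon use beside Rbfox1, had 3 events. Its 93-base coding exon (event 8783, sequence above) lies in the part that encodes the RNA recognition motif, and its length keeps the frame. Exclusion was 18.1%, 16.6% and 19.9% in R6/2 WT and 33.4%, 36.6% and 27.3% in R6/2 HD mice, with no overlap and a rise of 1.10 ± 0.18 (adjusted p = 0.000696) by limma. In Q150 mice it was 19.6%, 15.5%, 17.6%, 25.4% and 27.3% in WT and 29.5%, 22.3%, 33.4% and 27.6% in HOMO mice. The rise there was 0.57 ± 0.19 (adjusted p = 0.0331), but the mice overlapped. That call was lost on centring, with only both groups in the fit and when any mouse except Q150 WT replicates 4 or 5 or Q150 HOMO replicate 2 was left out. The change in Q175 HOMO mice was 0.30 ± 0.15 and did not pass (adjusted p = 0.258).

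The other Rbfox2 events could not be placed on a single exon of the annotation. Event 7670 rested on only 23 to 46 counts per mouse in the R6/2 set. Its long junction went from 4.61 ± 1.04 CPM in WT to 1.57 ± 0.444 in HD mice, near the lowest counts listed, so the size of the rise is uncertain. Exclusion there was 56.5%, 55.6% and 52.8% in WT and 81.6%, 86.96% and 88.1% in HD mice, and the log2 ratio rose by 2.22 ± 0.42 (adjusted p = 0.00162). In Q175 mice it was 32.7%, 63.3%, 45.2%, 37.1% and 54.2% in WT and 71.8%, 68.00% and 82.2% in HOMO mice, a rise of 1.72 ± 0.41 (adjusted p = 0.00592) that was lost without Q175 HOMO replicate 3. In the Q150 set WT mice had 48.4%, 53.3%, 58.2%, 51.5% and 56.4%, HET mice 66.7%, 66.1%, 64.9% and 75.9% and HOMO mice 39.5%, 60%, 62.7% and 61.2%. HOMO mice overlapped with WT and changed by 0.14 ± 0.31 (adjusted p = 0.8), and HET mice, all above WT, by 0.89 ± 0.31 (adjusted p = 0.126), neither of which passed. Event 8797, with the same short counts, passed in Q175 HOMO mice alone. Exclusion was 3.79%, 6.35%, 4.47%, 3.38% and 5.43% in WT and 9.12%, 7.80% and 7.31% in HOMO mice, a rise of 0.85 ± 0.27 (limma adjusted p = 0.0462). The event was lost on centring, with a larger pseudocount, with the series as a term, with all 10 WT mice and when any mouse except Q175 WT replicates 7 or 10 was left out. Its change in R6/2 HD mice, 0.06, was near 0, while the long junction went from 69.3 ± 8.996 to 108 ± 4.96 CPM alongside the short one.

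Mbnl1 and Mbnl2, the muscleblind proteins, were measured by 5 events. Exclusion of the 95-base Mbnl1 exon was 21.2%, 23.3% and 14.6% in R6/2 WT and 44.6%, 54.7% and 34.8% in R6/2 HD mice, a rise of 1.67 ± 0.43 (adjusted p = 0.0117) from 30 to 66 counts per mouse, lost without R6/2 HD mouse 868. In the Q150 set it was 27.2%, 16.9%, 20%, 33.9% and 30.7% in WT and 49.3%, 58.5%, 30.1% and 31.5% in HOMO mice, a rise of 1.08 ± 0.37 (adjusted p = 0.0376) with overlapping mice. The rise was seen in the low series of mouse numbers (log2 difference 2.10, 2 HOMO and 3 WT mice). The high series showed -0.10 (2 and 2 mice), and the call was lost on centring, in the quasi-binomial model of the counts and when any mouse except Q150 WT replicates 4 or 5 or Q150 HOMO replicates 3 or 4 was left out.

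The 36-base Mbnl2 exon (event 4827) was excluded in 26.8%, 29.3% and 32.4% of counts in R6/2 WT and 45.3%, 41.7% and 40.03% in R6/2 HD mice, a rise of 0.81 ± 0.13 (adjusted p = 0.000497) with no overlap. In Q150 HOMO mice it was 35.9%, 36.01%, 35.3% and 36.3%, just above the WT range from 28.3% to 34.8%, a rise of 0.31 ± 0.10 (adjusted p = 0.0343) that was lost on centring and when any mouse except Q150 WT replicates 1, 4 or 5 was left out. The 95-base Mbnl2 exon (event 8565), the counterpart of the Mbnl1 exon, had its call in the opposite direction. The junction that counts as skipping of the 36-base exon counts as inclusion of the 95-base exon, and it went from 262 ± 33.8 in R6/2 WT to 384 ± 36.3 CPM in R6/2 HD mice, while the other junction of event 8565 stood at 1748 ± 54.1 and 1748 ± 207. The exclusion of event 8565 was 88.00%, 87.1% and 85.8% in R6/2 WT and 79.3%, 82.3% and 84.2% in R6/2 HD mice, a log2 change of -0.56 ± 0.13 (adjusted p = 0.00651) that was lost with no variance trend. The remaining events, Mbnl1 6972 and Mbnl2 4811, had R6/2 changes of 0.20 and -0.30 and did not pass.

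A2bp1 event 4130 had little exclusion, 0.847%, 1.06% and 1.10% in R6/2 WT and 1.55%, 1.71% and 1.65% in R6/2 HD mice, from 6627 to 10772 counts per mouse. The HD mice were all higher, by 0.72 ± 0.17 (adjusted p = 0.00636), and the knock-in changes lay between -0.12 and 0.10. Celf2, a relative of Celf4, changed at its 144-base coding exon by -0.36 ± 0.12 (adjusted p = 0.0467) in R6/2 HD mice, toward lower exclusion, which was lost when any mouse except R6/2 WT mouse 4 or R6/2 HD mouse 869 was left out. The events of Elavl2, Elavl4, Tia1 and Tial1, neuronal stabilizing proteins and stress-granule proteins, passed in no comparison with WT.

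Among the hnRNP and poly(C) proteins 6 of 14 events passed in R6/2 HD mice, 5 of them higher, beside 28.6% of all events, and 5 of 13 in Q150 HOMO mice, 4 of them higher, beside 23.9%. In Q175 HOMO mice 0 of 16 passed by limma, beside 7.07%, 2 had an unadjusted p under 0.05, and the quasi-binomial model called 0.

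Ptbp2, the neuronal polypyrimidine tract-binding protein, includes its 34-base exon in nearly all messages, and skipping it shifts the frame. Exclusion was 1.82%, 1.39% and 1.09% in R6/2 WT and 2.93%, 3.08% and 3.54% in R6/2 HD mice, a rise of 1.19 ± 0.22 (adjusted p = 0.00145). The short junction went from 13.8 ± 3.76 to 38.3 ± 9.08 CPM, beside 940.3 ± 16.6 and 1154 ± 156 for the long junction, so that the exon stayed in nearly all counts in every mouse. Q150 WT mice had 1.23%, 1.38%, 1.51%, 1.48% and 1.74%, HET mice 2.21%, 2.35%, 1.98% and 2.29% and HOMO mice 3.13%, 3.21%, 3.94% and 2.83%. The 3 Q150 groups did not overlap, with limma rises of 0.60 ± 0.16 (adjusted p = 0.0405) in HET and 1.18 ± 0.16 (adjusted p = 2.14e-05) in HOMO mice. The HET call was lost on centring, with a larger pseudocount, in the quasi-binomial model, with only both groups in the fit and when any mouse except Q150 WT replicate 5 was left out. Q175 HOMO mice had 1.41%, 1.91% and 1.89% and WT mice values from 1.61% to 2.07%, which overlapped, with a change of -0.02 ± 0.21 (adjusted p = 0.967). The 34-base exon of its relative Ptbp1 did not pass in any comparison, and its R6/2 change was -0.06 ± 0.17.

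Hnrnpa1, the general hnRNP A1 repressor, had at its 159-base coding exon (event 7108) an exclusion of 84.7%, 84.5% and 84.6% in R6/2 WT and 89.9%, 90.1% and 90.2% in R6/2 HD mice. The rise was 0.72 ± 0.09 (adjusted p = 9.55e-05), with little spread within each group. In the Q150 set exclusion was 82.7%, 83.04%, 79.4%, 82.4% and 83.9% in WT, 85.9%, 85.4%, 85.9% and 86.9% in HET and 87.8%, 89.4%, 88.7% and 86.2% in HOMO mice. HET mice, by 0.40 ± 0.10 (adjusted p = 0.0285), and HOMO mice, by 0.66 ± 0.10 (adjusted p = 6.25e-05), were above all WT mice, although the HET call was lost on centring and when any mouse except Q150 WT replicates 2 or 5 was left out. The Q175 HOMO change was 0.21 ± 0.09 (adjusted p = 0.162). Its second event, the 1711-base exon, did not pass in any comparison with WT.

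Pcbp2 had the largest hnRNP change, in R6/2 mice alone. Exclusion of its 39-base coding exon (event 8638) was 10.5%, 9.47% and 13.2% in R6/2 WT and 29.1%, 28.8% and 32.00% in R6/2 HD mice, a rise of 1.79 ± 0.17 (adjusted p = 1.32e-05). The short junction went from 35.6 ± 7.26 to 99.1 ± 4.92 CPM and the long from 285 ± 7.36 to 233 ± 29.7. In Q150 mice WT values ran from 10.9% to 13.9% and HOMO values from 11.4% to 16.5%, and the change was 0.02 ± 0.17. In Q175 HOMO mice it was 0.32 ± 0.14 (adjusted p = 0.19). The Pcbp2 93-base exon, event 4300, had an R6/2 change of -0.29 that did not pass.

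Hnrph3 event 4848, a 139-base coding exon of Hnrnph3, an hnRNP H-family protein, was excluded in 17.1%, 15.7% and 15.8% of counts in R6/2 WT and 21.6%, 20.6% and 20.01% in R6/2 HD mice. This rise, 0.44 ± 0.14 (adjusted p = 0.0329), was lost on centring and when any mouse except R6/2 WT mouse 3 was left out. In Q150 mice it was 16.9%, 15.7%, 14.7%, 16.8% and 17.2% in WT and 25.4%, 22.7%, 25.8% and 21.4% in HOMO mice, a rise of 0.68 ± 0.13 (adjusted p = 0.000575) with no overlap that held in all of its alternatives. Hnrnph2, of the same family, rose in Q150 HOMO mice at an untranslated exon of 45 bases by 0.65 ± 0.15 (adjusted p = 0.00391) and was 0.31 ± 0.14 in R6/2 HD mice (adjusted p = 0.126). Hnrnpd (AUF1), which binds AU-rich elements and speeds mRNA turnover, fell in exclusion at its 147-base exon. It was 66.7%, 66.6% and 66.5% in R6/2 WT and 64.9%, 60.1% and 61.1% in R6/2 HD mice, a log2 change of -0.29 ± 0.09 (adjusted p = 0.0323), and it changed by -0.20 ± 0.07 (adjusted p = 0.0472) in Q150 HOMO mice. The R6/2 call was lost when any mouse except R6/2 HD mouse 860 was left out. The Q150 call was lost with only both groups in the fit, with all 10 WT mice and when any mouse except Q150 WT replicate 5 or Q150 HOMO replicate 3 was left out. Hnrpk event 4679, a 72-base coding exon of hnRNP K, rose in R6/2 HD mice by 0.50 ± 0.11 (adjusted p = 0.00507) and was lost on centring. The events of Hnrnpa2b1, Syncrip and Pcbp3, the other Hnrnph3 event and Pcbp2 event 7366 did not pass in any comparison with WT.

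SR proteins, which promote exon definition and often carry conserved poison exons, had 2 events past the threshold. Of 7 events 1 passed in R6/2 HD mice, beside 28.6% of all events, Srsf2 (SC35), whose untranslated exon of 104 bases was excluded in 99.7%, 99.8% and 99.7% of counts in WT and 99.8%, 99.9% and 99.9% in HD mice. The rise was 1.23 ± 0.35 (adjusted p = 0.0204) and was lost without R6/2 WT mice 3 or 6 or R6/2 HD mouse 869. In Q150 HET mice 1 of 8 passed, beside 3.47%, Srrm2, a scaffold protein of nuclear speckles, with 6.56%, 3.62%, 7.14%, 7.05% and 4.59% in WT, 9.38%, 14.9%, 11.03% and 12.1% in HET and 7.19%, 12.3%, 8.47% and 10.2% in HOMO mice. HET mice were above all WT mice, by 1.11 ± 0.31 (adjusted p = 0.0459), from 96 to 236 counts per mouse, but the call was lost on centring, in the quasi-binomial model, with only both groups in the fit and without any 1 of the 9 mice. The decay-marked exons of Sfrs3 and Tra2a, classic poison exons by which these proteins limit their own level, had R6/2 changes of -0.04 and 0.26 and Q150 HOMO changes of -0.27 and -0.28, none of which passed. Sfrs7, Sfrs10 and Sfrs14 did not pass either.

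In the RBM family 2 of 12 events passed in R6/2 HD, 3 of 13 in Q150 HOMO and 2 of 13 in Q175 HOMO mice, all with higher exclusion, beside 21.1%, 19.8% and 5.6% of all events that passed with higher exclusion. Rbm10, a regulator of cassette exons whose own gene is X-linked, had a 231-base coding exon (chrX:20637426-20637656, plus strand) excluded in 70.5%, 65.9% and 68.2% of counts in R6/2 WT and 77.99%, 80.8% and 78.1% in R6/2 HD mice. The rise was 0.81 ± 0.14 (adjusted p = 0.00118). In Q175 mice the values were 64.1%, 61.7%, 60.5%, 65.97% and 66.1% in WT and 73.2%, 67.9% and 68.1% in HOMO mice, a rise of 0.40 ± 0.12 (adjusted p = 0.0371) that was lost on centring, with the series as a term (log2 0.25, adjusted p = 0.393), with all 10 WT mice and when any mouse except Q175 WT replicates 9 or 10 was left out. In Q150 HOMO mice the change was 0.22 ± 0.13 (adjusted p = 0.234).

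Rbm34, a protein with RNA recognition motifs, was the 1 event that passed in both homozygous knock-ins and not in R6/2 mice. Exclusion of its 60-base coding exon was 40.6%, 44.2%, 41.2%, 41.6% and 45.3% in Q150 WT, 47.9%, 48.4%, 46.99% and 43.5% in HET and 51.3%, 52.6%, 56.3% and 54.8% in HOMO mice, a rise of 0.65 ± 0.11 (adjusted p = 0.00015). In the Q175 set WT mice had 44.4%, 40.3%, 42.5%, 38.2% and 43.7% and HOMO mice 49.6%, 47.5% and 49.7%, a rise of 0.42 ± 0.11 (adjusted p = 0.0109) that was lost without Q175 HOMO replicates 1 or 3. HOMO mice were above all WT mice in both sets. The R6/2 HD mice scattered, at 40.96%, 60.7% and 33.7% against 40.6%, 39.9% and 40.1% in WT, with a change of 0.28 ± 0.29 (adjusted p = 0.509). The differences between the models were not past the threshold for this event.

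Rbm16 (now Scaf8), which binds the tail of RNA polymerase II, rose in Q150 HOMO mice, from 88.1%, 87.3%, 85.9%, 84.98% and 82.4% in WT to 92.8%, 93.7%, 94.7% and 93.6% in HOMO mice. HET mice had 91.2%, 92.4%, 94.6% and 86.7%, which overlapped with WT, and a change of 0.83 ± 0.27 that did not pass (adjusted p = 0.0943). The HOMO rise was 1.28 ± 0.27 (adjusted p = 0.00171), from 148 to 313 counts per mouse, and it held in all of its alternatives. Rbm27, a zinc-finger RNA-binding protein, rose there by 0.60 ± 0.15 (adjusted p = 0.00456) and was lost on centring. Rbm26 event 7904, of the same zinc-finger type, was excluded in 79.8%, 71.2% and 76.6% of counts in R6/2 WT and 89.4%, 89.7% and 86.9% in R6/2 HD mice, a rise of 1.30 ± 0.25 (adjusted p = 0.00189), and Q150 and Q175 HOMO changes were 0.45 and 0.05. The second Rbm26 event, the decay-marked exon of the cold-inducible Rbm3, and the events of Rbm7, Rbm18, Rbm39, Rbm41, Rbm4b and Rbms1 did not pass in any comparison with WT.

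Spliceosome components moved in both directions, with 5 of 10 events past the threshold in R6/2 HD mice, 3 higher and 2 lower, beside 28.6% of all events, and 2 of 9 in Q150 HOMO mice, 1 each way, beside 23.9%. The R6/2 count holds the identical U2af1 pair as 2 events. Prpf3, a protein of the U4/U6 snRNP, passed in all 3 models at a 96-base exon annotated only in a decay-marked transcript, although its Q175 HOMO call was lost with no variance trend. Exclusion was 91.3%, 92.8% and 91.7% in R6/2 WT and 97.00%, 97.2% and 95.8% in R6/2 HD mice, a rise of 1.36 ± 0.21 (adjusted p = 0.000486). Q150 WT mice had 92.4%, 89.1%, 91.9%, 92.5% and 91.2%, HET mice 93.7%, 94.4%, 92.9% and 93.03% and HOMO mice 94.5%, 95.8%, 93.03% and 95.2%. Q175 WT mice had 92.2%, 92.1%, 92.6%, 90.5% and 93.4%, HET mice 91.3%, 94.9%, 93.1% and 93.4% and HOMO mice 95.5%, 94.3% and 95.7%. HOMO mice were above all WT mice in both sets, by 0.74 ± 0.18 (adjusted p = 0.00388) in Q150 and by 0.74 ± 0.17 (adjusted p = 0.00469) in Q175 mice. In R6/2 mice the long junction went from 30.3 ± 2.36 to 16.2 ± 3.99 CPM and the short from 345 ± 10.6 to 468 ± 14.9.

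The other exons of the decay-marked class were not alike. Prpf39, a U1 snRNP-associated protein, fell in exclusion in R6/2 HD mice at its 100-base exon, from 61.3%, 58.9% and 61.6% in WT to 41.1%, 46.4% and 55.6% in HD mice, by a log2 change of -0.75 ± 0.21 (adjusted p = 0.0172) that was lost without R6/2 WT mouse 6 or R6/2 HD mouse 860. U2af1, which recognises the 3′ splice site, rose by 0.44 ± 0.12 (limma adjusted p = 0.0168) at an event matched to a 67-base exon. The same counts are also listed as mutually exclusive exons, so its decay mark is uncertain. The U2af1 call was lost on centring and without R6/2 WT mice 3 or 6 or R6/2 HD mouse 868. Counting the U2af1 pair and the Tra2a pair once each, 25 of 71 splicing factor events passed in R6/2 HD mice. Of the 10 decay-marked exons as listed, 4 passed in R6/2 HD mice, 3 higher (the uncertain U2af1 match among them) and 1 lower. The median change of the 10 was 0.11, beside 0.23 for the 91 such exons among all events, of which 18 passed with higher and 6 with lower exclusion. Prpf38b and Sfrs3 stood at -0.41 and -0.04 and did not pass.

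Luc7l2, a U1 snRNP-associated factor, changed toward lower exclusion by -0.33 ± 0.11 (adjusted p = 0.0433) in R6/2 HD mice at its 30-base coding exon, which was lost in the quasi-binomial model and when any mouse except R6/2 WT mouse 6 or R6/2 HD mouse 868 was left out. Snrp70 (Snrnp70), the U1 70K protein, had a lower exclusion in Q150 HOMO mice, 36.2%, 33.8%, 28.9% and 34.6% against 44.4%, 43.6%, 37.3%, 41.7% and 37.3% in WT, a log2 change of -0.47 ± 0.11 (adjusted p = 0.00524) that held in all of its alternatives. Its changes in the other 4 comparisons were -0.35 in R6/2 HD, -0.17 in Q150 HET, -0.34 in Q175 HET and -0.28 in Q175 HOMO mice. Puf60, Snrpa1, Prpf38b and Zranb2 did not pass. Of the 3 helicase events 1 passed, Ddx50, a nucleolar helicase, with a change of -0.42 ± 0.14 (adjusted p = 0.0278) in Q150 HOMO mice, where 23.9% of all events passed. Its mice overlapped, and the call was lost without Q150 WT replicates 2 or 3 or Q150 HOMO replicates 1 or 3. The events of Ddx26b and Dhx30 did not pass in any comparison with WT.

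Translation factors start, scaffold or regulate protein synthesis. In R6/2 HD mice 4 of 10 passed, all 4 with lower exclusion, beside 7.46% of all events with lower exclusion. In Q150 HOMO mice 3 of 12 passed, 1 higher and 2 lower, beside 23.9%, and in Q175 HOMO mice limma, beside 7.07% of all events, and the quasi-binomial model called 0 of 12, with 1.0 at an unadjusted p under 0.05. Over the 10 events their R6/2 median log2 change was -0.20, beside 0.18 over all events. Eif2a, an alternative initiation factor, had an exclusion of 5.82%, 8.79% and 6.22% in R6/2 WT and 2.78%, 2.98% and 2.37% in R6/2 HD mice, a log2 change of -1.40 ± 0.20 (adjusted p = 0.000252). The short junction went from 48.2 ± 10.6 to 22.9 ± 2.46 CPM and the long from 648 ± 51.8 to 828 ± 105. In the knock-ins the log2 change was -0.51 ± 0.16 in Q150 HET, -0.43 ± 0.16 in Q150 HOMO, -0.24 ± 0.13 in Q175 HET and -0.13 ± 0.14 in Q175 HOMO mice, none past the threshold.

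Eif4h, a cofactor of the eIF4A helicase, had a 60-base coding exon excluded in 77.8%, 75.5% and 75.03% of counts in R6/2 WT and 70.9%, 69.1% and 69.8% in R6/2 HD mice. The log2 change was -0.46 ± 0.10 (adjusted p = 0.00388), with no overlap, and was lost with no variance trend. In Q150 mice it was 79.02%, 75.1%, 77.4%, 79.1% and 79.8% in WT and 70.5%, 67.2%, 71.6% and 77.5% in HOMO mice, a change of -0.49 ± 0.13 (adjusted p = 0.0108) with overlapping mice that was lost without Q150 HOMO replicate 2. Eif4a2, one of the eIF4A helicases, changed toward lower exclusion at a partly coding exon of 107 bases, by -0.39 ± 0.13 (adjusted p = 0.0436) in R6/2 HD and by -0.51 ± 0.15 (adjusted p = 0.0211) in Q150 HOMO mice. Exclusion there was high throughout, 98.4%, 98.4% and 98.5% in R6/2 WT and 97.5%, 98.1% and 98.2% in R6/2 HD mice, and the R6/2 call was lost in the quasi-binomial model and when any mouse except R6/2 HD mouse 869 was left out. In Q150 mice it was 98.7%, 98.6%, 98.4%, 98.05% and 98.1% in WT and 97.9%, 97.5%, 97.3% and 98.1% in HOMO mice, which overlapped, and the call was lost without Q150 WT replicate 1 or Q150 HOMO replicates 2 or 3.

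Eif4g3, a scaffold of the cap-binding complex, had 2 events. Event 8283, from 140 to 208 counts per mouse, changed by -0.87 ± 0.29 (adjusted p = 0.0438) in R6/2 HD mice, lost when any mouse except R6/2 WT mouse 4 or R6/2 HD mouse 869 was left out, and by 0.47 ± 0.27 in Q150 HOMO mice, where it did not pass. Event 8954, a 129-base coding exon, rose in Q150 HOMO mice by 0.32 ± 0.10 (adjusted p = 0.0239) and was lost on centring and without Q150 WT replicate 1 or Q150 HOMO replicates 2 or 3. The events of Eif2ak4, Eif2b3, Eif3s12, Eif4enif1 and Eif4g1 did not pass in any comparison with WT.

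**Figure D3:**
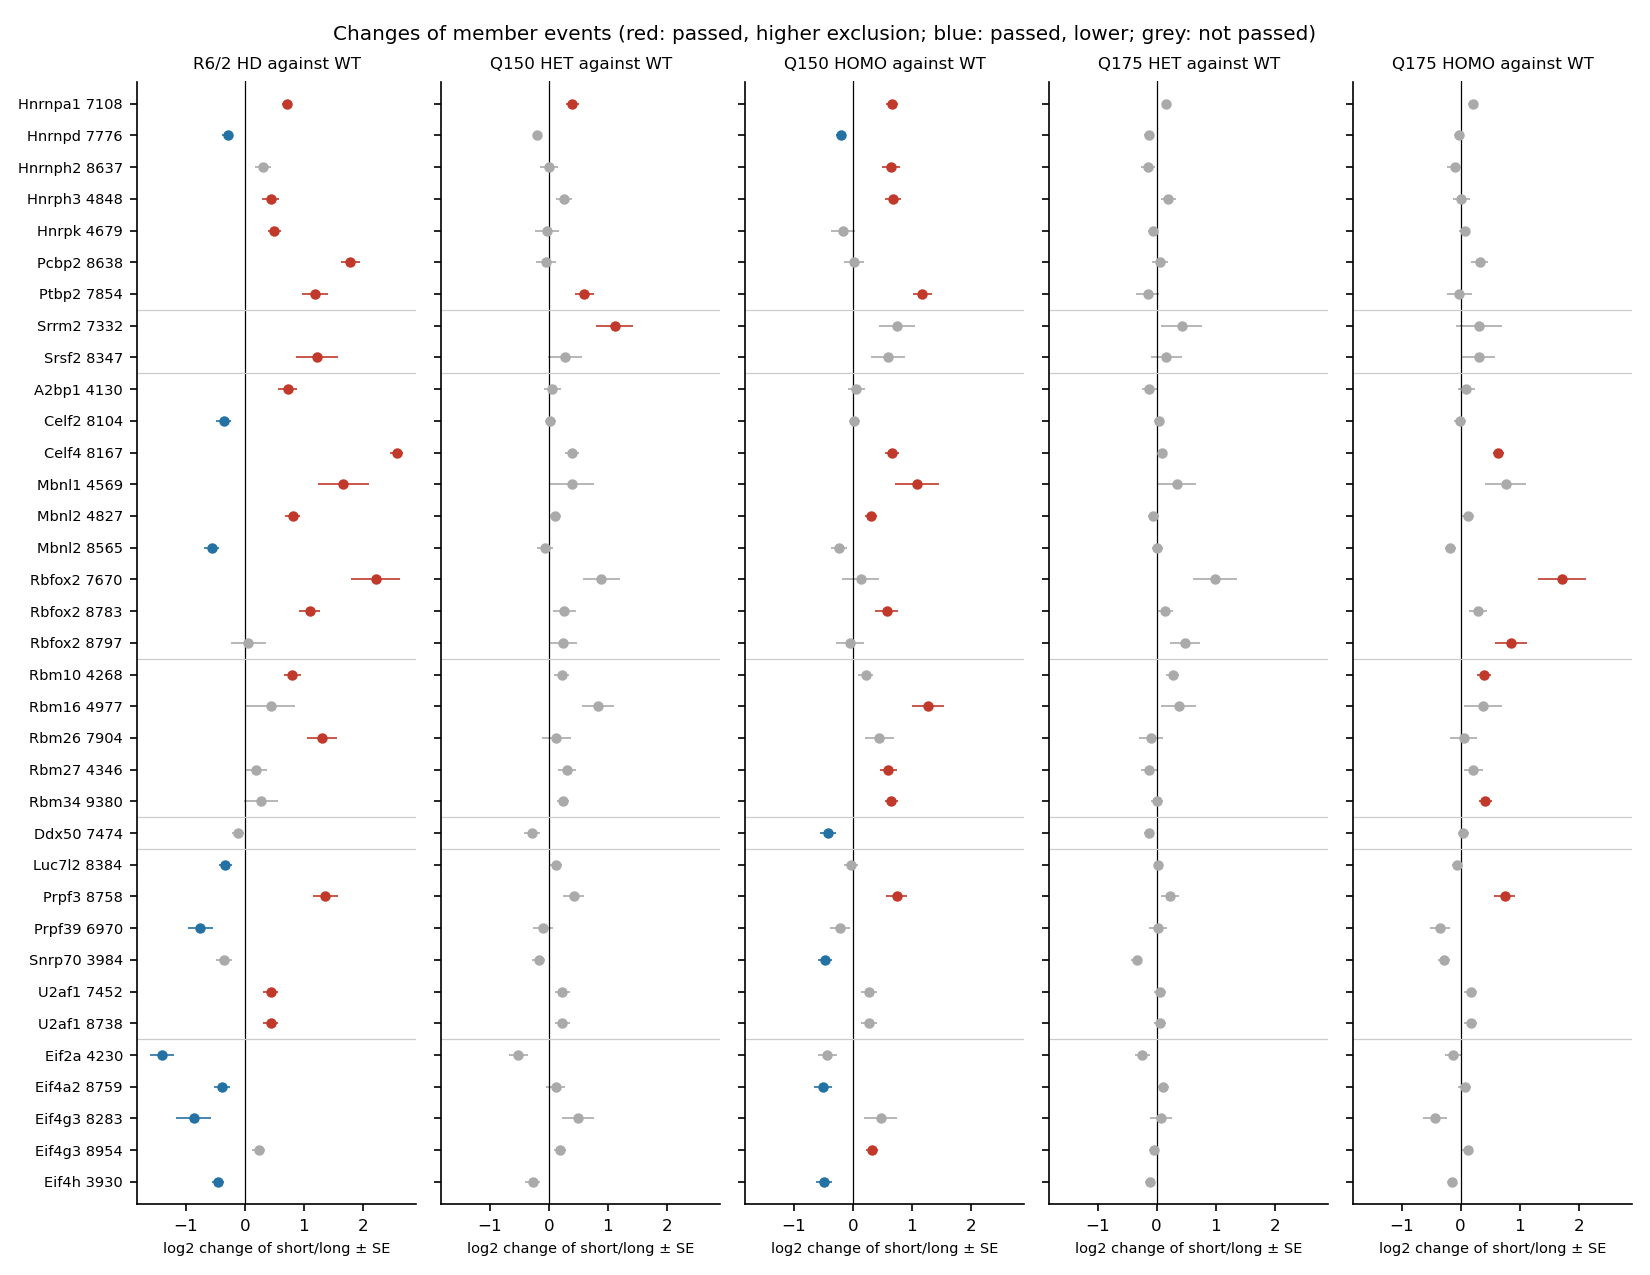
log2 change in short over long counts with its SE (x axis) for the 35 events that passed in at least 1 of the 5 comparisons with WT (1 panel each), grouped by function from hnRNP proteins at the top to translation factors at the bottom. Filled red points passed with higher exclusion, blue points with lower, and grey points did not pass. Celf4 reaches 2.57 in R6/2 HD mice and Eif2a -1.40.

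The changes of related exons are given side by side. In R6/2 HD mice the Ptbp2 exon changed by 1.19 and the Ptbp1 exon by -0.06, the Mbnl1 exon by 1.67 and the Mbnl2 exon by -0.56, and the Rbfox2 exon by 1.10 and the A2bp1 exon by 0.48. The first of each pair passed, as did the Mbnl2 exon in the opposite direction, while Ptbp1 and A2bp1 5001 did not. The Mbnl2 call rests on the junction that event 8565 shares with event 4827. For Elavl4 and Elavl2 the values were 0.19 and -0.58, and neither passed. Differences within a pair were not tested.

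**Figure D4:**
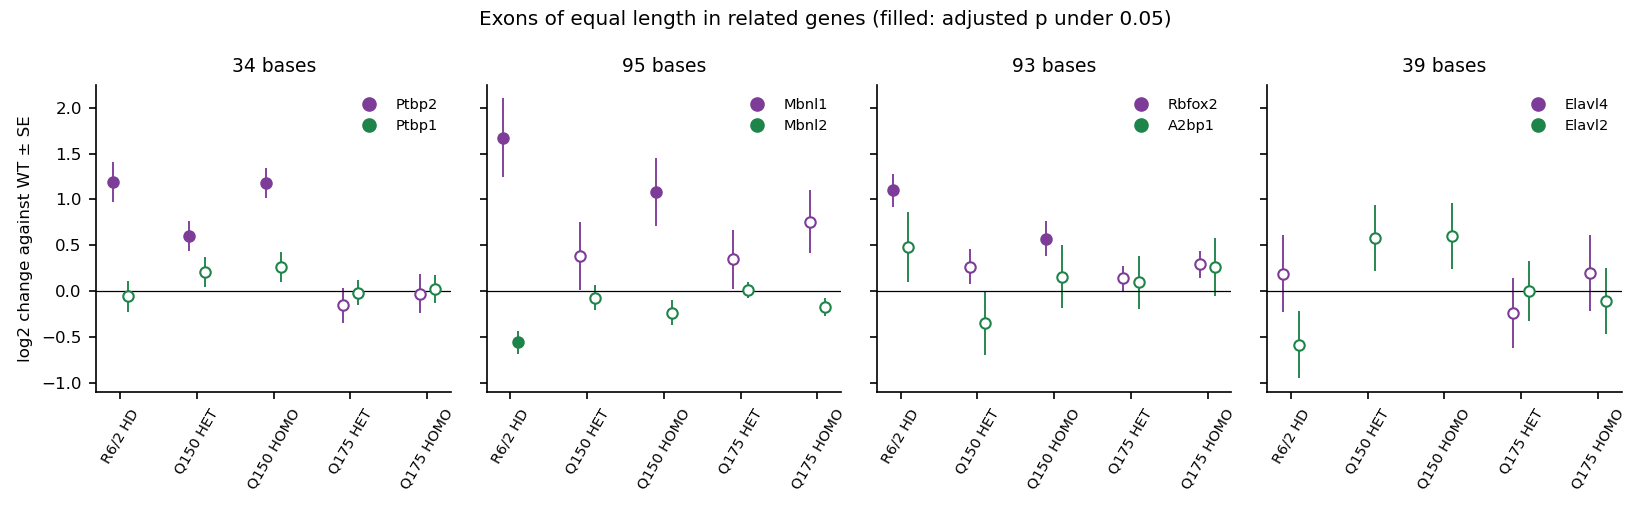
log2 change against WT with its SE (y axis) in the 5 comparisons (x axis) for exons of equal length in related genes, 1 panel per pair. Filled points passed an adjusted p of 0.05 and open points did not, and in R6/2 HD mice the Mbnl1 exon lies at 1.67 and the Mbnl2 exon at -0.56.

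A further question was whether 2 mutant alleles differed from 1. Between Q150 HOMO and HET mice 2 of 74 events passed, beside 2.18% of all events, Hnrnph2 by 0.64 ± 0.16 (adjusted p = 0.0343) and Eif4a2 by -0.62 ± 0.16 (adjusted p = 0.0425), both lost on centring. Between Q175 HOMO and HET mice 1 of 79 passed, beside 0.816%, the Celf4 exon already given. The Ptbp2 exon differed by 0.58 ± 0.17 between Q150 HOMO and HET mice (adjusted p = 0.0961) and the Hnrnpa1 exon by 0.26 ± 0.11 (adjusted p = 0.258). HET and HOMO mice did not overlap for Ptbp2 and overlapped for Hnrnpa1.

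Whether the models differed in the size of a change was tested as an interaction in limma over the 31 mice, on the 70 splicing factor events that all files list. Between R6/2 HD and Q150 HOMO mice 9 of 70 differed, beside 9.69% of 1662 events. The R6/2 change was higher by 1.90 ± 0.16 (adjusted p = 3.47e-11) for Celf4, by 1.76 ± 0.25 (adjusted p = 3.57e-06) for Pcbp2 and by 2.08 ± 0.53 (adjusted p = 0.00789) for Rbfox2 7670, and Rbm10, Mbnl2 4827 and A2bp1 4130 were also higher in R6/2. It was lower for Eif4g3 8283, by -1.34 ± 0.39 (adjusted p = 0.0222), for Eif2a, by -0.97 ± 0.24 (adjusted p = 0.006), and for Tial1 7376, which passed in neither model. On centring 7 were higher and 2 lower, and 8 of the 9 remained.

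Between R6/2 HD and Q175 HOMO mice 8 of 70 differed, beside 11.6% of all. Celf4 was higher in R6/2 by 1.93 ± 0.17 (adjusted p = 3.21e-11), Pcbp2 by 1.46 ± 0.26 (adjusted p = 0.000116) and Ptbp2 by 1.21 ± 0.29 (adjusted p = 0.00406), as were Rbm26 7904, Mbnl2 4827, A2bp1 4130 and Hnrnpa1 7108, while Eif2a differed by -1.27 ± 0.25 (adjusted p = 0.00049). On centring 4 were higher and 2 lower, and 5 of the 8 remained. Between Q150 and Q175 HOMO mice 4 of 70 differed, beside 2.77% of all, Ptbp2 by 1.20 ± 0.26 (adjusted p = 0.0072), Hnrnph2 by 0.74 ± 0.20 (adjusted p = 0.0349), Hnrph3 4848 by 0.67 ± 0.18 (adjusted p = 0.033) and Hnrnpa1 7108 by 0.46 ± 0.13 (adjusted p = 0.0389), all 4 higher in Q150. On centring 1 was higher in Q150, Ptbp2, and 4 others were lower, while the calls of Hnrnph2, Hnrph3 and Hnrnpa1 were lost. The 3 tests share their mutant and WT groups.

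Over the splicing factor events the median exclusion per mouse was 40.6% to 42.9% in R6/2 WT and 40.1% to 44.5% in R6/2 HD mice, which overlapped, and over all events it was 41.5% to 42.1% and 42.9% to 45.6%. The mean exclusion per mouse of the splicing factor events did not overlap, at 44.5% to 44.7% in R6/2 WT and 45.9% to 46.8% in R6/2 HD mice, and neither did that of all events, at 45.3% to 45.5% and 47.0% to 47.5%. In the Q150 set the median was 37.4% to 43.9% in WT and 42.2% to 45.1% in HOMO mice, beside 39.6% to 41.3% and 42.4% to 45.1% over all events. In the Q175 set it was 35.9% to 39.5% in WT and 39.5% to 42.9% in HOMO mice, beside 40.7% to 41.7% and 41.3% to 42.7% over all events. The Q175 WT mice had a lower mean over the splicing factor events, 41.01% to 42.00%, than over all events, 44.8% to 45.4%. The mean was also lower in R6/2 WT and in Q150 WT mice, where it was 43.9% against 44.6%. The Q175 list holds events that the other sets lack, among them Pcbp2 7366 and Pcbp3 7638, with 0.277% and 0.765% exclusion in WT mice. The part of this in the difference was not tested. In R6/2 WT mice 18 of the 73 events had an exclusion under 10% (24.7%, against 23.2% of all events) and 11 one above 90% (15.1%, against 15.3%). In Q175 WT mice 23 of the 79 were under 10% (29.1%, against 24.0%) and 10 above 90% (12.7%, against 15.3%).

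Other genes of RNA processing that the rule leaves out, a list of 86 names of which 31 were measured at 45 events, had 21 of 42 events past the threshold in R6/2 HD mice, 17 higher and 4 lower, beside 28.6% of all events. In Q150 HOMO mice 21 of 43 passed, 18 higher, beside 23.9%, and in Q175 HOMO mice 7 of 44, 6 higher, beside 7.07%. In the HET mice 7 of 43 passed for Q150, beside 3.47%, and 2 of 44 for Q175, beside 0.598%. The list names Hnrpdl, Hnrnpk, Rbm5 and Sfrs8, which the rule sets aside, and was drawn up with earlier results known. These shares are therefore a description only.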

How the data were processed

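RASL-seq was run on cortex RNA of 31 mice. Probe pairs annealed to oligo(dT)-selected RNA were ligated, amplified and sequenced. The authors deposited a table for each mouse with whole-number counts of the short and the long junction of each event. The submitters' processing notes name mm10, but the listed positions do not match GRCm38, and the aligner is not given in the sources used here. No molecular identifiers are stated, so that reads are not shown to be independent molecules. Groups were taken from the labels, with the knock-in line from the glutamine numbers. Nothing states that libraries were repeated, so each mouse is 1 replicate. The lists of events in the files decided which 5 of the knock-in WT mice served as controls for each line.

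For each event log2((short + 0.5)/(long + 0.5)) was tested in limma 3.58.1 (R 4.3.3) over all events of a set, with 1 mean per group, a variance trend on the counts and Benjamini-Hochberg adjustment at 0.05. A minimum mean of 10 counts removed 0 events. Tables and figures were made with Python 3.11.15, pandas 2.3.3 and matplotlib 3.10.9, and the tests were tried on simulated data. Values by mouse are given for events past the threshold in the same direction in at least 2 of R6/2 HD, Q150 HOMO and Q175 HOMO mice, and for up to 5 non-overlapping events past it with the largest change in each comparison. Other events shown by mouse were chosen after their values were seen. The splicing factor events and all lists were chosen with earlier results of these data known. Older symbols were updated through RefSeq names for 62 of 63 genes, and exons were read from GRCm38 with GENCODE M21. A translation factor event and an exon sequence are not reported here.

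Alternatives were a count minimum of 50 or none, a pseudocount of 5, each mouse centred on its median event, no variance trend, a quasi-binomial model, the series of mouse numbers as a term, all 10 WT knock-in mice, only the groups compared, and each mouse left out in turn.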

Additional observations from a re-analysis of the deposited data

Results flagged for a closer look

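In 5 of 95 groups of values by mouse 1 mouse lay apart from the others of its group, where chance gives about 1 in 20 (4.75 of 95). For Celf4 event 8167 this was Q150 HET replicate 4, at 95.8% exclusion beside 93.9% to 94.2%. For Rbfox2 event 7670 it was Q150 HET replicate 4, at 75.9% beside 64.9% to 66.7%, and Q150 HOMO replicate 1, at 39.5% beside 60% to 62.7%. For Eif4a2 event 8759 it was Q175 HET replicate 3, at 98.5% beside 98.6% and, for Hnrnpd event 7776, Q175 WT replicate 10, at 66.1% beside 63.0% to 63.7%.

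The change differed between models by limma's interaction test for 9 events between R6/2 HD and Q150 HOMO mice, 8 between R6/2 HD and Q175 HOMO mice and 4 between Q150 HOMO and Q175 HOMO mice, on the log2 scale. R6/2 minus Q150 HOMO was 0.66 ± 0.21 for A2bp1 event 4130, -0.97 ± 0.24 for Eif2a event 4230, 0.59 ± 0.18 for Rbm10 event 4268, 0.51 ± 0.15 for Mbnl2 event 4827, -0.71 ± 0.22 for Tial1 event 7376, 2.08 ± 0.53 for Rbfox2 event 7670, 1.90 ± 0.16 for Celf4 event 8167, -1.34 ± 0.39 for Eif4g3 event 8283 and 1.76 ± 0.25 for Pcbp2 event 8638. R6/2 minus Q175 HOMO was 0.63 ± 0.21 for A2bp1 event 4130, -1.27 ± 0.25 for Eif2a event 4230, 0.69 ± 0.16 for Mbnl2 event 4827, 0.51 ± 0.14 for Hnrnpa1 event 7108, 1.21 ± 0.29 for Ptbp2 event 7854, 1.25 ± 0.38 for Rbm26 event 7904, 1.93 ± 0.17 for Celf4 event 8167 and 1.46 ± 0.26 for Pcbp2 event 8638. Q150 HOMO minus Q175 HOMO was 0.67 ± 0.18 for Hnrph3 event 4848, 0.46 ± 0.13 for Hnrnpa1 event 7108, 1.20 ± 0.26 for Ptbp2 event 7854 and 0.74 ± 0.20 for Hnrnph2 event 8637.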

How the results depend on the processing

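No paired analysis was possible because the knock-in replicate numbers only name the mice and the R6/2 WT and HD mouse numbers do not overlap. No direction of a called event turned in any alternative. Of 53 calls in the comparisons with WT, 25 were lost with no variance trend, 14 on centring, 5 in the quasi-binomial model and 2 with a pseudocount of 5, and 0 of those tested were lost with a minimum of 50 counts. With no variance trend the splicing factor events called fell to 14 in R6/2 HD mice, 11 in Q150 HOMO mice and 2 in those of Q175, and to 0 between HOMO and HET mice of either line. In Q150 HET mice 1 was called on centring, 1 in the quasi-binomial model, 1 with only the groups compared, 5 with the series of mouse numbers as a term and 7 with all 10 WT mice. In Q175 HET mice 1 was called in the quasi-binomial model and 1 with only the groups compared. Between Q150 HOMO and HET mice 0 were called on centring, 4 with the series as a term and 1 with only the groups compared, and between Q175 HOMO and HET mice 0 with the series as a term. Leaving out each mouse in turn gave 17 to 23 calls in R6/2 HD, 0 to 3 in Q150 HET, 12 to 22 in Q150 HOMO, 0 to 2 in Q175 HET and 2 to 6 in Q175 HOMO mice, 0 to 2 between Q150 HOMO and HET and 1 between Q175 HOMO and HET mice. All 3 Q150 HET calls were lost without any 1 HET mouse. The cause of these losses was not tested. Chosen after seeing the data were the alternatives for HOMO against HET and for the differences between models, and 1 event of each identical pair, which gave 25 calls in R6/2 HD mice, 3 and 18 in HET and HOMO mice of the Q150 line and 0 and 6 in those of the Q175 line. Depth limits events with few counts, such as Rbfox2 7670 and Mbnl1 4569.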
